A study of Mus musculus with 6 samples.

Results

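Genes of peroxisome biogenesis and of peroxisomal enzymes were compared between Nrf2 knockout and wild-type mouse liver. The 42 genes were chosen by name as a known organelle programme and found by gene symbol among 18193 genes with a probe set of a single symbol, where they had 78 probe sets. The knockout group was liver of mice labelled Nrf2 ko and the wild-type group was liver of mice labelled Nrf2 wt, both of the mixed strain C57B/SV129 and 10 weeks of age. There were 3 Affymetrix arrays per genotype, each made from a pool of 3 livers, and p-values measure the spread among these pools, not among animals. The labels do not describe the allele, the deleted part of the gene, the cells in which it was deleted or the sex of the animals, and they name no treatment in either group.

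Peroxisomes are single-membrane organelles that liver cells hold in large numbers. Their proteins, the peroxins, import finished enzymes from the cytosol, insert membrane proteins and divide the organelle. The enzymes of the interior, or matrix, shorten very long and branched fatty acids and bile acid intermediates, oxidise glycolate, urate and amino acids with release of hydrogen peroxide, and begin ether lipid synthesis. In rodent liver many of the fatty acid enzymes are induced by the nuclear receptor PPARalpha, whereas Nrf2, encoded by Nfe2l2, drives detoxification genes from antioxidant response elements.

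The deposited values were probe set intensities, whose 2% trimmed mean per array ran from 92.7 to 132. They were normalized between arrays before testing, and a normalized intensity below is on the scale of the deposited intensities. Nfe2l2 had normalized intensities of 6.38, 8.09 and 6.52 in the knockout pools, against 579, 712 and 533 in the wild-type pools, so each array matched its genotype label. The hepatocyte marker list was bright on every array, with a summed normalized intensity of 85525 to 87659 in knockout pools and 82062 to 85139 in wild-type pools. The pools numbered 3 stood apart from the others: 38 probe sets were at least 1 log2 unit higher in both of them than in every other pool, and 8 were lower by that margin. Knockout pool 2 stood apart for Abcd2, Hao2 and Agxt, described below. Values without these pools are given beside the results that turn on them. The number of arrays limits the precision of every value.

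Loss of Nrf2 left most peroxisomal transcripts within the spread between pools. Of the 72 peroxisomal probe sets bright enough to be tested, 1 passed an adjusted p of 0.05 in limma, a probe set of Nudt7 that fell, against 0.142% of all 22519 probe sets tested. Of the 41 genes tested at their brightest probe set, 0 passed, where 0.144% of all 11102 genes did. An unadjusted p under 0.05 was reached by 5 peroxisomal genes with higher values in the knockout (Abcd2, Ehhadh, Ech1, Agxt and Crot) and by 2 with lower values (Pex2 and Acot8). Over all genes those shares were 4.07% higher and 4.15% lower, so 12.2% and 4.88% of the peroxisomal genes stood beside them. The 3 knockout values lay above all wild-type values for 7 of the 41 genes, where 7.38% of all genes did so, and below them for 3, where 6.55% did. The remaining 31 genes had overlapping groups. Of the genes counted here, Abcd2 and Hao2 reached the filter on dim values through their knockout pools, so they had to differ, and without them 5 genes lay above the wild type without overlap. Abcd2 is also among the 5 higher genes with an unadjusted p under 0.05, and leaving it aside these are Ehhadh, Ech1, Agxt and Crot. In whole liver RNA, fewer cells of a type and less RNA per cell cannot be told apart.

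**Figure D1:**
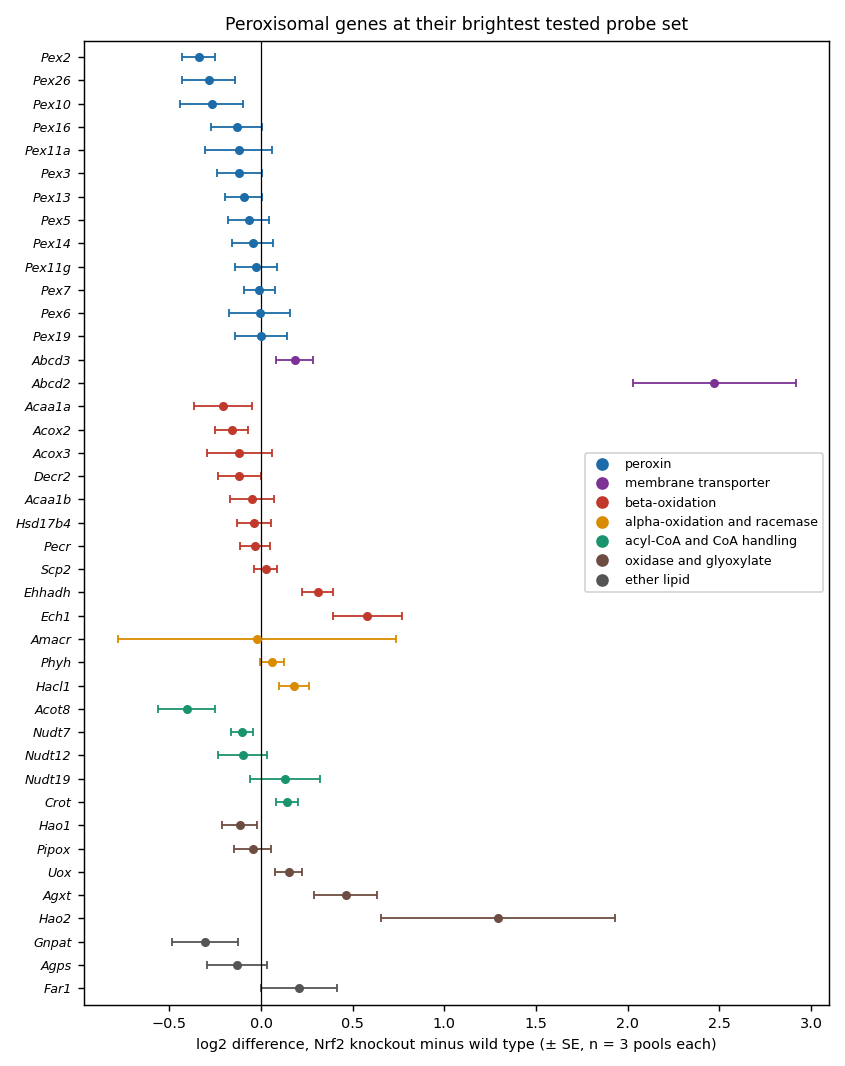
Log2 difference (Nrf2 knockout minus wild type, x axis) of each of the 41 tested peroxisomal genes at its brightest probe set, with SE bars and n = 3 pools per genotype, coloured by role. All 13 peroxins sit at or left of 0, between -0.34 and -0.00, while Abcd2 (2.47) and Hao2 (1.29) lie far to the right.

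The peroxin values lay slightly below the wild type. All 13 peroxin genes had a log2 difference below 0 at their brightest probe set, against 48.6% of all genes, with a median of -0.10 and a range from -0.34 to -0.00. The median over all genes was 0.01. Of the 27 peroxin probe sets, 24 were below 0, against 49.2% of all probe sets tested. None of them passed in limma (lowest adjusted p = 0.423), and 2 had an unadjusted p under 0.05, so these are counts of direction, with no peroxin past the threshold. The count moved with single pools: it was 13 under median centring, 11 of 13 with array weights, 12 of 13 without knockout pool 1 or wild-type pool 3, 11 of 13 without wild-type pool 1, 10 of 13 without knockout pool 2 or knockout pool 3, and 9 of 13 without wild-type pool 2. Without both pools numbered 3 it was 11 of 13.

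The RING-finger peroxins, which ubiquitinate the import receptor so that it can be recycled, lay, with Pex26, furthest below the wild type among the peroxins. Pex2 had normalized intensities of 592, 550 and 599 in the knockout pools, against 696, 735 and 776 in the wild-type pools. Every knockout pool was below every wild-type pool, and the log2 difference was -0.34 ± 0.09 (SE, n = 3 per genotype; limma adjusted p = 0.423), 1.26-fold lower in the knockout. A second, dim probe set of Pex2 was at -0.17 ± 0.18. Pex10, its partner in the same ligase complex, was at -0.27 ± 0.17, with overlapping groups.

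Pex26, the membrane anchor of the ATPase that pulls the receptor back out of the membrane, had 140, 131 and 159 in the knockout pools, against 161, 209 and 160 in the wild-type pools. These groups did not overlap, but knockout pool 3 and wild-type pool 3 were almost level. The log2 difference was -0.29 ± 0.14 (limma adjusted p = 0.701), or -0.42 ± 0.17 without both pools numbered 3 (0.529). Pex6, a subunit of the ATPase, was at -0.01 ± 0.17, and its 5 probe sets ran from -0.21 to 0.05.

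The remaining peroxins had overlapping groups at their brightest probe sets. Pex5, the receptor for the carboxy-terminal import signal, was at -0.07 ± 0.11, and its other probe set was at 0.10 ± 0.10, with every knockout pool above every wild-type pool. Pex7, the receptor for the amino-terminal signal, was at -0.01 ± 0.08. The docking proteins Pex13 and Pex14 were at -0.10 ± 0.10 and -0.05 ± 0.11. Among the peroxins that insert membrane proteins, Pex3 was at -0.12 ± 0.12, Pex16 at -0.13 ± 0.14 and Pex19 at -0.00 ± 0.14. Dimmer Pex19 probe sets were at -0.18 ± 0.13 and -0.39 ± 0.45. Of the division factors, Pex11a was at -0.12 ± 0.18 and Pex11g at -0.03 ± 0.12, though a dim Pex11g probe set was at -0.42 ± 0.17. Each of these SEs covers the size of its difference or nearly so, apart from that dim Pex11g probe set and the Pex19 probe set at -0.18.

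**Figure D2:**
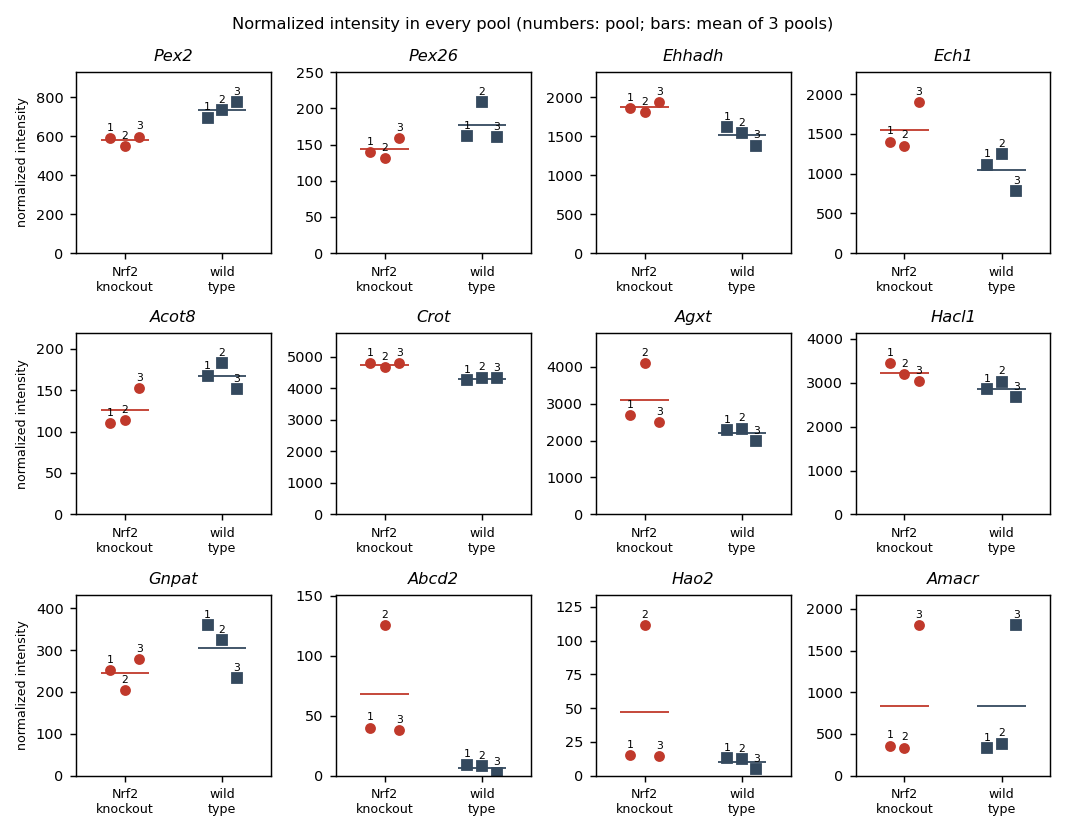
Normalized intensity (linear y axis from 0) of 12 peroxisomal genes in each pool, Nrf2 knockout left and wild type right, with the pool number at each point and a bar at the mean of 3 pools. Pex2 separates the genotypes without overlap, Abcd2 and Hao2 peak in knockout pool 2, and Amacr is high in both pools numbered 3.

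The matrix enzymes showed no shared direction. Of 26 matrix enzyme genes 25 were tested, 10 higher and 15 lower in the knockout, with a median log2 difference of -0.04 and a range from -0.41 to 1.29. A difference larger than 0.3 on the log2 scale was seen for 6 of the 25, against 1 of 13 peroxins and 16.4% of all genes. Leaving aside Hao2, which passed the filter through the knockout alone, 5 matrix enzymes exceeded that size and the highest difference was 0.58 (Ech1). The peroxin median was below the matrix enzyme median by -0.06 log2. Set against each gene's mean over the 6 pools, the median over peroxins was -0.00, -0.06 and -0.11 in the knockout pools, against 0.03, 0.15 and -0.04 in the wild-type pools. For the matrix enzymes it was -0.02, -0.07 and 0.04 in the knockout pools, against -0.02, -0.00 and 0.00 in the wild-type pools. In both sets the genotypes overlapped, and the peroxin values were spread by 0.08 (pooled SD), more than the gap between the medians of the sets. The matrix enzyme median was 0.02 without knockout pool 2, so its sign rested on that pool.

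**Figure D3:**
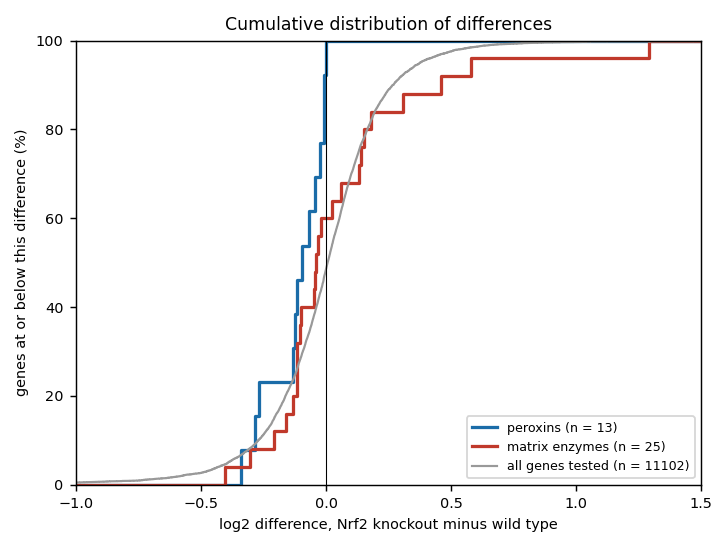
Cumulative share of genes (y axis, percent) at or below each log2 difference (Nrf2 knockout minus wild type, x axis, shown from -1 to 1.5) for 13 peroxins, 25 matrix enzymes and all 11102 genes tested. The peroxin curve reaches 100% at 0, while the matrix enzyme curve runs near that of all genes. The last step of the matrix enzyme curve, at 1.29, is Hao2, which passed the filter through the knockout alone.

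Of the 10 beta-oxidation genes, 3 had values above and 7 below the wild type, and Ehhadh and Ech1 were the ones whose knockout pools lay clear of the wild-type pools. Ehhadh, the L-bifunctional enzyme that hydrates and dehydrogenates acyl-CoA and a classic PPARalpha target in rodents, had 1863, 1814 and 1940 in the knockout pools, against 1614, 1544 and 1381 in the wild-type pools. All knockout pools exceeded all wild-type pools, by 0.31 ± 0.09 log2 or 1.24-fold (limma adjusted p = 0.437). Ech1, a dienoyl-CoA isomerase that is also found in mitochondria, had 1404, 1353 and 1900 in the knockout pools, against 1113, 1242 and 777 in the wild-type pools. Again the groups did not overlap, and the widest gap lay between the pools numbered 3. Its log2 difference was 0.58 ± 0.19 (limma adjusted p = 0.544), leaving out single pools gave 0.38 to 0.72, and it was 0.23 ± 0.11 without both pools numbered 3.

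The other beta-oxidation genes had overlapping groups at their brightest probe sets. Hsd17b4, the D-bifunctional enzyme for branched substrates, was at -0.04 ± 0.09, and its second probe set was at 0.14 ± 0.08. The branched-chain acyl-CoA oxidases Acox2 and Acox3 were at -0.16 ± 0.09 and -0.12 ± 0.18, and the dienoyl-CoA reductase Decr2 was at -0.12 ± 0.12. Pecr, an enoyl-CoA reductase, was at -0.03 ± 0.08. The thiolases Acaa1a and Acaa1b were at -0.21 ± 0.16 and -0.05 ± 0.12. Acaa1a and Acaa1b are near-identical, and probe sets annotated to both were at -0.15 ± 0.16 and -0.11 ± 0.15, so the share of each gene is uncertain. Scp2, which yields a thiolase and a lipid carrier from a single gene, was at 0.02 ± 0.06, but another bright probe set of it was at -0.16 ± 0.07 with 8649, 8172 and 8507 in the knockout pools, against 9205, 10071 and 9120 in the wild-type pools. That probe set separated the genotypes and the brightest did not, and of the 4 Scp2 probe sets 2 were above and 2 below 0.

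In alpha-oxidation, which removes a carbon from branched phytanic acid, Hacl1 and Phyh had slightly positive differences that did not pass the test. Hacl1, the lyase of the pathway, had 3442, 3192 and 3042 in the knockout pools, against 2858, 3026 and 2669 in the wild-type pools. The groups lay just apart (3042 against 3026 at the nearest), with a log2 difference of 0.18 ± 0.08 (limma adjusted p = 0.662). Phyh, the hydroxylase of the initial step, had 8918, 8992 and 9521 in the knockout pools, against 8553, 8536 and 9246 in the wild-type pools, and these overlapped (0.06 ± 0.06).

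Amacr, the racemase that turns branched acyl-CoA into the form beta-oxidation accepts, followed the pool number and not the genotype. It had 362, 336 and 1805 in the knockout pools, against 330, 384 and 1811 in the wild-type pools. Both pools numbered 3 were far above the rest and nearly equal to each other. The genotype difference was -0.02 ± 0.76 log2, with the largest SE among the 41 genes, and -0.03 ± 0.13 without both pools numbered 3. Amacr was chosen here after its values were seen.

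**Figure D4:**
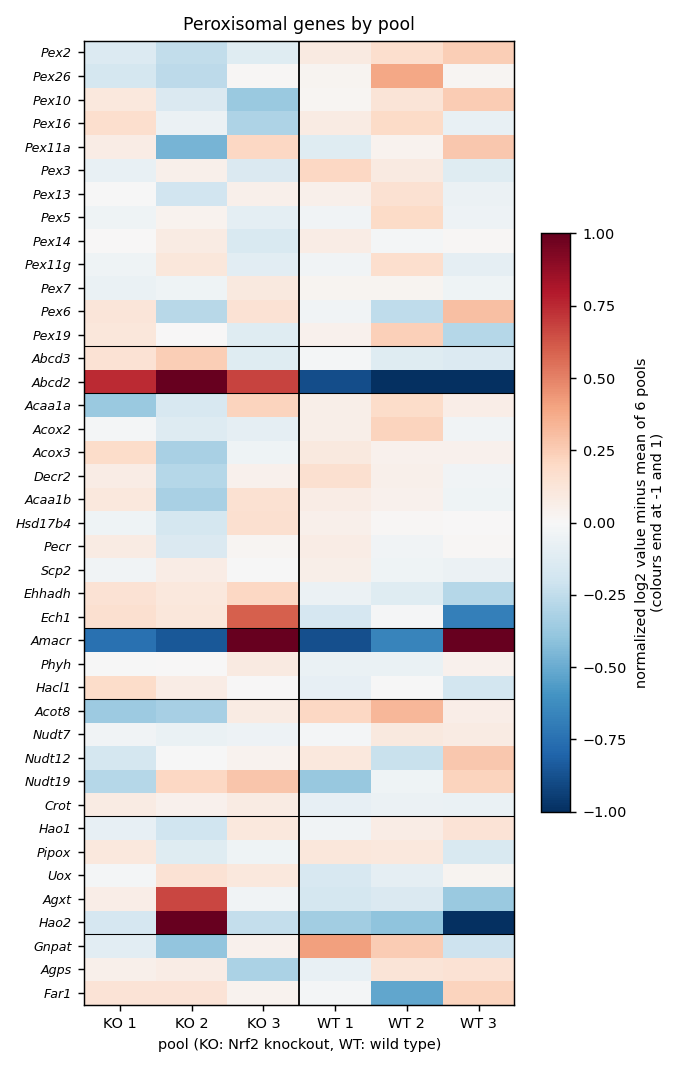
Normalized log2 value of each tested peroxisomal gene (rows, grouped by role) in each pool (columns, Nrf2 knockout left of wild type), minus the gene's mean over the 6 pools, with colours ending at -1 and 1. Amacr is raised in both pools numbered 3, Abcd2 and Hao2 are highest in knockout pool 2, and the peroxin rows at the top stay well within the colour range.

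Of the acyl-CoA and CoA handling genes, Nudt7 had the single probe set that passed the test. Nudt7 encodes a peroxisomal diphosphatase that degrades CoA and acyl-CoA. Its third-brightest probe set had 158, 132 and 165 in the knockout pools, against 317, 269 and 348 in the wild-type pools. Knockout pools were all below wild-type pools, and the signal fell by 1.01 ± 0.14 on the log2 scale, 2.02-fold (limma adjusted p = 0.0438). The other 3 Nudt7 probe sets were lower by far less and did not pass. The brightest had 7951, 7807 and 7883 in the knockout pools, against 8044, 8746 and 8632 in the wild-type pools, also without overlap, at -0.10 ± 0.06 (adjusted p = 0.744). The remaining ones were at -0.16 ± 0.09 and -0.19 ± 0.16. The position of each probe set on the transcript was not analysed here, and leaving out any single pool raised the adjusted p to between 0.0582 and 0.235 while the difference stayed between -1.11 and -0.92.

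**Figure D5:**
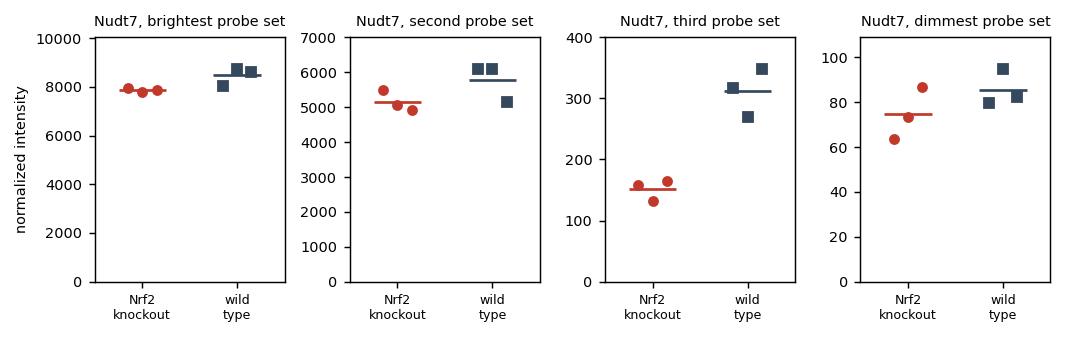
Normalized intensity (linear y axis from 0) of the 4 Nudt7 probe sets, from brightest to dimmest, in the 3 Nrf2 knockout pools (left) and 3 wild-type pools (right), with bars at the means. The third probe set is 2.02-fold lower in the knockout, and the others differ by 0.10 to 0.19 log2.

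Acot8, a thioesterase that releases CoA from chain-shortened products, had 111, 113 and 153 in the knockout pools, against 167, 182 and 151 in the wild-type pools. Only knockout pool 3 reached the wild-type range, and the difference was -0.41 ± 0.15 log2 (limma adjusted p = 0.607), or -0.61 ± 0.15 without both pools numbered 3 (0.289). Crot, the carnitine octanoyltransferase that exports medium-chain products, had 4791, 4672 and 4791 in the knockout pools, against 4265, 4344 and 4316 in the wild-type pools. The groups were tight and did not overlap, and the difference was small, 0.14 ± 0.06 log2 or 1.10-fold (limma adjusted p = 0.644). With median centring in place of quantile normalization the Crot difference was 0.13 ± 0.09 (limma adjusted p = 0.811). The other diphosphatases of the Nudix family overlapped, Nudt12 at -0.10 ± 0.13 and Nudt19 at 0.13 ± 0.19.

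The membrane transporter Abcd2, which carries very long and polyunsaturated acyl-CoA into the organelle, had the largest difference among the peroxisomal genes. Its brightest probe set had 40.0, 126 and 37.8 in the knockout pools, against 9.30, 7.76 and 2.61 in the wild-type pools. Every knockout pool was above every wild-type pool, and knockout pool 2 was far above the other knockout pools. The log2 difference was 2.47 ± 0.44, 5.55-fold, with a limma adjusted p of 0.132. A second tested probe set was at 2.28 ± 0.60, with 27.5, 151 and 27.6 in the knockout pools, against 13.8, 4.12 and 2.92 in the wild-type pools. Further probe sets were under the filter. One had 2.74, 43.7 and 1.45 in the knockout pools, against 0.39, 0.77 and 1.27 in the wild-type pools. Another had 1.60, 16.9 and 2.17 in the knockout pools, against 8.58, 1.11 and 0.50 in the wild-type pools, which overlapped. The wild-type values lie near the pseudocount of 5.26, so the size depends on it, at 3.03 log2 with a pseudocount of 1.31 and 1.56 with a pseudocount of 21.0. At both tested probe sets the gene passed the filter on dim values through its knockout values alone. Without knockout pool 2 the gene fell under the filter, the same normalized values of its brightest probe set then giving 1.95. Abcd3, the bright transporter of branched-chain and bile acid precursors, had 3632, 3890 and 3013 in the knockout pools, against 3230, 3017 and 2983 in the wild-type pools, which overlapped (0.18 ± 0.10).

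The oxidases and the glyoxylate enzyme were led by Agxt and Hao2. Agxt, which turns glyoxylate into glycine, had 2691, 4087 and 2506 in the knockout pools, against 2278, 2324 and 1990 in the wild-type pools. The groups did not overlap, but the difference of 0.46 ± 0.17 log2 (1.38-fold, limma adjusted p = 0.600) was 0.24 without knockout pool 2. Hao2, a hydroxyacid oxidase for longer chains and chosen after its values were seen, had 15.2, 112 and 14.2 in the knockout pools, against 12.8, 12.2 and 4.83 in the wild-type pools. Knockout pool 2 alone was high, and the gene passed the filter on dim values only through it. The difference of 1.29 ± 0.64 log2 is therefore a description, and the same normalized values gave 0.44 without that pool.

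Uox, the urate oxidase that forms the core of rodent peroxisomes, had 9314, 10456 and 10157 in the knockout pools, against 8460, 8868 and 9617 in the wild-type pools. These overlapped in a single pair of pools, at 0.15 ± 0.07 log2 (limma adjusted p = 0.687). The glycolate oxidase Hao1 was at -0.12 ± 0.09 and the sarcosine and pipecolate oxidase Pipox at -0.05 ± 0.10. Dao, the D-amino acid oxidase, was the single member under the filter, with 9.62, 8.81 and 1.86 in the knockout pools, against 19.6, 15.5 and 9.15 in the wild-type pools, all dim.

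Abcd2, Hao2 and Agxt shared their peak in knockout pool 2. The cause of this shared peak was not tested. Values of sex-linked genes, chosen after these values were seen, are given as a description. The Y-linked Eif2s3y had 518, 509 and 599 in the knockout pools, against 637, 587 and 673 in the wild-type pools. Xist, which is expressed from the inactive X chromosome, was under the filter at 11.6, 11.9 and 10.6 in the knockout pools, against 11.4, 9.98 and 4.95 in the wild-type pools.

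Ether lipid genes overlapped throughout. Gnpat, the acyltransferase that opens the pathway, had 251, 204 and 278 in the knockout pools, against 360, 323 and 233 in the wild-type pools, at -0.30 ± 0.18 log2. Wild-type pool 3 was within the knockout range, and without both pools numbered 3 the difference was -0.58 ± 0.15 (limma adjusted p = 0.338). Far1, the membrane reductase that supplies the fatty alcohol, had 55.7, 55.7 and 51.5 in the knockout pools, against 49.3, 33.4 and 59.4 in the wild-type pools, at 0.21 ± 0.21. Agps, the synthase that exchanges the acyl for the alkyl chain, was at -0.13 ± 0.16.

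Other genes of the organelle, from a list of 43 of which 35 had a probe set here and 33 were tested, were split evenly in direction. Values were above the wild type for 16 and below it for 17, the median being -0.01, and 0 passed in limma. An unadjusted p under 0.05 was reached by 2 higher and 2 lower, 6.06% each, against 4.07% and 4.15% of all genes. The groups did not overlap for 2 higher and 4 lower, 6.06% and 12.1%, against 7.38% and 6.55% of all genes. Both lower genes with an unadjusted p under 0.05 encode proteases of the matrix. Lonp2, which clears damaged matrix proteins, had 1371, 1185 and 1215 in the knockout pools, against 1782, 1796 and 1581 in the wild-type pools. The groups were well apart, at -0.45 ± 0.09 log2 (limma adjusted p = 0.218). Tysnd1, which processes imported enzymes, was at -0.38 ± 0.14 (adjusted p = 0.607). The higher genes were the acyl-CoA thioesterases Acot3 and Acot4, at 1.59 ± 0.55 and 0.45 ± 0.17 (adjusted p = 0.569 and 0.607), Acot3 having passed the filter on dim values through its knockout pools.

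PPARalpha and its targets outside the peroxisome were given as a comparison list, since Ehhadh is one of the receptor's targets. Of 18 tested, 12 had values above and 6 below the wild type, the median being 0.05, and 0 passed in limma. An unadjusted p under 0.05 was reached by 5 higher (27.8%) and 0 lower, against 4.07% and 4.15% of all genes. Cyp4a14, an omega-hydroxylase of fatty acids, had 70.5, 426 and 1857 in the knockout pools, against 26.7, 17.6 and 35.2 in the wild-type pools. The knockout pools ran over a wide range, all above the wild type, and the difference was 3.67 ± 0.93 log2 (limma adjusted p = 0.391). The same normalized values gave 2.74 without both pools numbered 3 and 2.55 without knockout pool 3 alone. Its relative Cyp4a31 was at 1.59 ± 0.26 (adjusted p = 0.0898), the thioesterases Acot1 and Acot2 at 0.52 ± 0.17 and 0.55 ± 0.21, and the coactivator Ppargc1a at 0.79 ± 0.24. The highest Cyp4a14 pool was knockout pool 3, whereas Abcd2 and Hao2 peaked in knockout pool 2.

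Markers of other cells had differences as large as those of the peroxins, with lists on either side of 0. The 2 cholangiocyte markers tested had a median of -0.22, and the 1 red blood cell marker tested was at -0.39. The hepatocyte sum given above was higher in every knockout pool, with a median difference of 0.06 over 9 genes. Of the stellate cell and fibroblast list, all 10 had values above the wild type, with a median of 0.28 log2, and 0 passed in limma. Des, at 1.00 ± 0.31, passed the filter on dim values only through its knockout pools, and without it the median was 0.22 over 9 genes. Lum was at 0.38 ± 0.12, with an unadjusted p under 0.05. Their summed normalized intensity was 3900 to 4078 in knockout pools and 3266 to 3638 in wild-type pools. The endothelial sum was 3871 to 3994 in knockout pools and 3556 to 3861 in wild-type pools, every knockout pool being higher. Its median difference was 0.10 over 10 genes, 7 above and 3 below the wild type. The Kupffer cell and macrophage list had a median of 0.13 over 10 genes, 7 above and 3 below the wild type. Its differences ran from -0.35 to 0.30, the highest being C1qb at 0.30 ± 0.12. Its sum overlapped, 5828 to 7679 in knockout pools and 5886 to 6965 in wild-type pools. The 4 lymphocyte and granulocyte markers tested had a median of 0.22, with sums of 125 to 275 in knockout pools and 155 to 181 in wild-type pools. Ms4a1 among them passed the filter on dim values only through its knockout pools, and without it the median was 0.07 over 3 genes. The ratio of 3′ to 5′ actin signal, a sign of RNA integrity, was 1.94, 1.96 and 2.01 in the knockout pools, against 1.77, 1.94 and 1.88 in the wild-type pools, each knockout array being higher, the nearest pair almost level. The same ratio for Gapdh overlapped between the genotypes. It was 0.784, 0.725 and 0.793 in the knockout pools, against 0.756, 0.767 and 0.756 in the wild-type pools. The part of these cells or of RNA integrity in the peroxin values was not tested.

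Promoter sequences of the peroxisomal genes are shown because Nrf2 acts through short motifs there. Of the 42 genes, 36 had a promoter in the RefSeq table of mouse build GRCm38.p6, each window running from 250 bases before the transcript start to 50 after it. The core of the antioxidant response element, searched as TGACNNNGC on both strands, stood in 7 of the 36 genes (19.4%), 2 of 11 peroxins and 5 of 23 matrix enzymes, and in 14.0% of all genes of the table. By window it stood in 12.4% of all promoters. The matches are printed 5′ to 3′ on the strand of the gene with 16 bases on either side where the window allows, and the capitals mark the core, or its reverse complement where it lies on the other strand.
Acox2 (chr14:8259008-8259048, minus strand): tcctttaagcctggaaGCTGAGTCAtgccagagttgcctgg
Ehhadh (chr16:21787975-21788015, minus strand): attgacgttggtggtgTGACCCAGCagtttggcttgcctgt
Scp2 (chr4:108118529-108118569, minus strand): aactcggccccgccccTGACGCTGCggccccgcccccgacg
Nudt19 (chr7:35555987-35556027, minus strand): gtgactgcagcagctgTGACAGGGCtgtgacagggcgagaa
Hao1 (chr2:134554573-134554602, minus strand): cccctGCTTTGTCAgtgtgaccaaccctac
Pex7 (chr10:19907722-19907762, minus strand): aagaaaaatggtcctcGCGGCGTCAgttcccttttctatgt
Pex11g (chr8:3467643-3467683, minus strand): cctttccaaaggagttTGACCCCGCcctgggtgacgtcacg

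The Nudt19 core was repeated 11 bases downstream, and Pex7 held a second core nearer its start. The genes with a core did not share a direction: Ehhadh (0.31), Nudt19 (0.13) and Scp2 (0.02) were above 0 and Acox2 (-0.16), Hao1 (-0.12), Pex11g (-0.03) and Pex7 (-0.01) below it, and none passed the test. The PPARalpha motif, searched on both strands as a direct repeat of AGGTCA spaced by 1 base, stood in 0 of the 36 genes and in 0.0396% of all promoters, so its absence from these windows says only that these letters are not there.

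CpG content is given as a description, with no test. Taking for each gene the window with the most CG pairs, the 11 peroxins had 7 to 39 with a median of 19, the 23 matrix enzymes 2 to 33 with a median of 14, and all genes of the table a median of 8. The 6 oxidase and glyoxylate genes had the fewest, 2 to 9 with a median of 4. The contrast is shown with Pex11g, at the peroxin median with 19, and Hao2, with 2, in 300 bases each, the capitals marking CG pairs.
Pex11g (chr8:3467599-3467898, minus strand): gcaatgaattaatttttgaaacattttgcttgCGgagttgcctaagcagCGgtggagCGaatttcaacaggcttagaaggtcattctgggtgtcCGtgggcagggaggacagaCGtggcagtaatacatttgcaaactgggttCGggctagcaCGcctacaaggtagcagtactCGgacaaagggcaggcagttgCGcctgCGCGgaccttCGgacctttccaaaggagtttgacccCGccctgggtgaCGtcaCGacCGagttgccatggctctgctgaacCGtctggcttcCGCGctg
Hao2 (chr3:98893181-98893480, minus strand): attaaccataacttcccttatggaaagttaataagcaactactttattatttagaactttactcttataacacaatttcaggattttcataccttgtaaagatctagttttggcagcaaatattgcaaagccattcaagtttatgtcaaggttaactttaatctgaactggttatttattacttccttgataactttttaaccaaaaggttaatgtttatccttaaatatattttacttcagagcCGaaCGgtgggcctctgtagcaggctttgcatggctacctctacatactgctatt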

How the data were processed

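The authors deposited 1 linear intensity per probe set and array, between 0.0174 and 16555. The submitters' processing notes name GCOS 1.4, and how it was set to summarise and scale the arrays is not given in the sources used here. Gene names came from GEO's annotation of the array, with symbols updated through Entrez identifiers and a mouse gene table of GRCm38.p6 (34741 of 34945 probe sets with 1 gene; 932 with several were not named). The 64 control probe sets were left out. A pseudocount of 5.26, the 25th percentile over all arrays, was added before log2 and quantile normalization; a fold change on this scale understates the change of dim probe sets. Normalized intensities are the normalized values turned back to the linear scale, less the pseudocount. Probe sets whose mean reached the median were tested with limma 3.58.1 in R 4.3.3 (eBayes with an intensity trend, Benjamini-Hochberg over 22519 probe sets, threshold 0.05), and a gene took its brightest tested probe set. The fit was tested on simulated data.

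The genes, lists and alternatives were chosen with earlier results of these data known. Values in every pool were given for genes with a probe set past the threshold or an unadjusted p under 0.05, and for the 2 of each role with the smallest p; from other lists, up to 6 genes with the smallest unadjusted p under 0.05 were named. The marker lists were of hepatocytes, macrophages, stellate cells, endothelium, cholangiocytes, lymphocytes and granulocytes, and red blood cells; of the last 3, 2 of 5, 4 of 8 and 1 of 3 genes with a probe set were tested, with 0 passing. The labels state no pairing, so the genotypes were not treated as paired in the main fit. Deviations of same-numbered pools correlated by 0.13, 0.05 and 0.25, and those of differently numbered pools by -0.19 to 0.10. A shared effect of the pool number was not tested. Alternatives were median centring, other pseudocounts (1.31 and 21.0) and filters, no trend, array weights, a replicate block, averaging the probe sets of a gene, each pool left out, and both pools numbered 3 left out, the last added after seeing the data.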

Additional observations from a re-analysis of the deposited data

How the results depend on the processing

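The Nudt7 call, the single member call, was kept with median centring, both pseudocounts, array weights and the replicate block, and was lost (0 member probe sets called) with no filter (log2 difference -1.01, adjusted p = 0.0754), the stricter filter, set at the 70th percentile (-1.01, 0.0554), the fit with no intensity trend (-1.01, 0.150), without both pools numbered 3, an alternative chosen after seeing the data (-0.99, 0.0799), and without each pool in turn, where the count was 0 to 0 and the difference -1.11 to -0.92. All probe sets called numbered 32, against 20 with no filter, 19 with the stricter filter, 18 without the trend, 32 with the replicate block and 18 to 29 without single pools. Peroxisomal genes with groups that do not overlap numbered 10, 9 to 19 without single pools (as few as 9 without knockout pool 2, as many as 19 without wild-type pool 3) and 24 without both pools numbered 3, where fewer pools overlap by construction: over all genes 4682 did not overlap then, against 1546 with all pools. The peroxin median ran from -0.16 to -0.063 over the alternatives and the matrix enzyme median from -0.078 to 0.023; without single pools the matrix enzyme median was -0.049 to 0.023, positive without knockout pool 2. The median of all genes moved from 0.01 to -0.03 with median centring. Of 663 single values 35 changed sign, none of them called. Leaving out single pools gave ranges across 0 for Pex7 (-0.061 to 0.021), Amacr (-0.81 to 0.76), Pex6 (-0.13 to 0.14), Pex11a (-0.26 to 0.080), Acox3 (-0.24 to 0.014), Hsd17b4 (-0.13 to 0.037), Acaa1b (-0.14 to 0.10), Scp2 (-0.0071 to 0.060), Pecr (-0.082 to 0.033), Pipox (-0.13 to 0.0058), Pex11g (-0.088 to 0.052), Pex14 (-0.097 to 0.019), Pex19 (-0.14 to 0.12), Nudt19 (-0.023 to 0.31), Pex5 (-0.11 to 0.012) and Nudt12 (-0.24 to 0.0088). The sign also changed with array weights for Pex6 (0.042), Pex19 (0.0032) and Amacr (0.018), without both pools numbered 3 for Pex6 (0.065), Pex14 (0.015) and Agps (0.038), and with the mean of probe sets for Pex5 (0.016), Hsd17b4 (0.049) and Scp2 (-0.074). The cause was not tested. Low signal limits Abcd2, Hao2 and Dao.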

Other observations

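The pools numbered 3 had other transcripts in common with Amacr. The heat shock gene Hspa1b, chosen after its values were seen, had normalized intensities of 433, 138 and 5999 in the knockout pools, against 654, 931 and 4107 in the wild-type pools. For the pools numbered 1 and 2, the probe sets that stood at least 1 log2 unit above all other pools in both genotypes numbered 3 and 0, against 38 for the pools numbered 3.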
